A study of Branchiostoma lanceolatum with 24 samples.

Results

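The first 3 h of SU5402 treatment, from 5 to 8 hours post fertilization (hpf), were examined in Branchiostoma lanceolatum, the European amphioxus, whose lineage (the cephalochordates) branches off early among chordates. SU5402 embryos at 8 hpf had been kept in sea water with 50 µM SU5402 since 5 hpf, and DMSO embryos at 8 hpf had been kept in 0.1% DMSO for the same time. Each group held 2 libraries, so 4 of the 24 libraries of the series belong to the comparison, and they were chosen by their labels alone. Effects are also given for the 4 libraries at 11 hpf and the 4 at 14 hpf, which continue the same exposure to 6 and 9 h. They are given too for the 4 collected at 18.5 hpf after 3 h of treatment from 15.5 hpf. Libraries of 21.5 and 24.5 hpf, after 6 and 9 h of treatment from 15.5 hpf, complete the series. These enter only the range of read totals, the spread of pairs and the fit of all 24 libraries. The labels give the same 50 µM and 0.1% for those groups. Every library was made from a mix of whole embryos, so fewer cells of a type and less RNA per cell cannot be told apart. All 96094 contigs of the deposited table were considered, a contig being an assembled piece of transcript.

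Fibroblast growth factors (FGFs) are secreted ligands that bind receptor tyrosine kinases and signal largely through the Ras and MAP kinase cascade to ETS-family transcription factors. In chordate embryos this pathway acts in the specification and patterning of mesoderm, and in amphioxus its early inhibition is known for the loss of anterior somites, the front segments of the trunk muscle. SU5402 occupies the ATP site of FGF receptors and also inhibits some related receptor kinases. The table pairs no contig with a gene name, and 0 of the 96094 identifiers were found in the RefSeq gene table of the species. Contigs are therefore described by their levels and courses, and whether known FGF targets moved was not tested. Levels are reads as CPM, the count scaled to a common library size, after scaling by trimmed mean of M-values (TMM) factors, not corrected for contig length.

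The 4 libraries at 8 hpf held 39988564 and 29704193 reads with SU5402 and 33919562 and 29923338 reads with DMSO, within the 10866511 to 39988564 reads of the whole series. More contigs were detected with SU5402. At least 10 reads were found for 66462 and 61778 contigs in the SU5402 libraries and for 56778 and 55894 in the DMSO libraries. Depth alone does not order these counts, since the SU5402 replicate 2 library held fewer reads than either DMSO library. At 1 CPM or more of the library total, 39234 and 39552 contigs were found with SU5402 and 35989 and 37051 with DMSO. ContigAmph3515, named here because its values stood out once seen, took 10.4% and 11.4% of the reads with SU5402 and 7.62% and 8.4% with DMSO. It rose, by 0.35 on the log2 scale (SE 0.083, edgeR adjusted p = 0.017).

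The replicate libraries at 8 hpf stood about as far apart as the other pairs of the early series. Spread beyond sampling noise, given as the biological coefficient of variation, was 23.5% for SU5402 and 23.3% for DMSO at 8 hpf. It was 19.4% and 23.6% at 11 hpf and 21.3% and 21.6% at 14 hpf, SU5402 pair first in each case. The pairs of the late series, treated from 15.5 hpf, ran from 3.4% to 7.33%. All 6 early pairs, including both at 8 hpf, were thus more variable than all 6 late ones. Among the 17627 contigs with a mean of at least 5 CPM over the 12 early libraries, 658 were more than 2-fold apart between the SU5402 replicates and 676 between the DMSO replicates at 8 hpf. At 11 and 14 hpf, the 4 early pairs had 492 to 1040 such contigs. The lists at 8 hpf overlapped: 432 contigs were more than 2-fold apart in the same direction in both pairs, 65.7% of the SU5402 list and 63.9% of the DMSO list, and 0 in opposite directions.

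**Figure D1:**
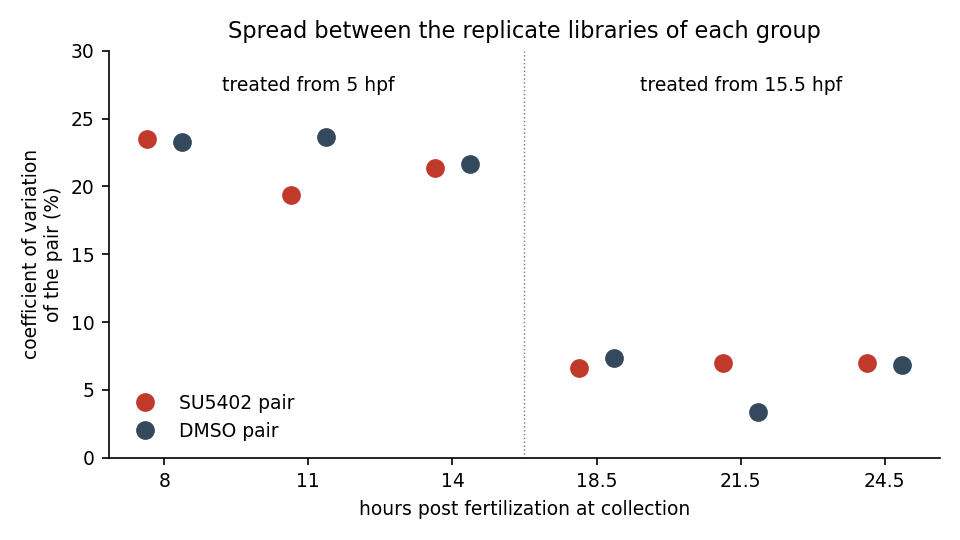
Biological coefficient of variation (%) of the 2 replicate libraries of each group, against hours post fertilization at collection, with SU5402 pairs in red and DMSO pairs in dark blue. The 6 pairs treated from 5 hpf lie between 19.4% and 23.6%, and the 6 treated from 15.5 hpf between 3.4% and 7.33%.

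Differences between SU5402 and DMSO libraries at 8 hpf were wider than this. SU5402 replicate 1 differed more than 2-fold from DMSO replicate 1 at 2074 of the 17627 contigs, and SU5402 replicate 2 from DMSO replicate 2 at 1650. Between libraries of unequal number the counts were 2839 for SU5402 replicate 1 against DMSO replicate 2 and 3162 for SU5402 replicate 2 against DMSO replicate 1. All 4 comparisons had more such contigs than either replicate pair, and in each of them more contigs were lower with SU5402 than higher. Both SU5402 libraries were more than 2-fold above both DMSO libraries at 351 contigs, or 1.99%, and more than 2-fold below them at 464, or 2.63%. These counts were made with TMM factors only. On that scale the median log2 fold change at 8 hpf of contigs from 10 to 100 CPM was -0.33. With TMM factors taken from abundant contigs, which centre such contigs by construction, it was 0.0027. Whether more contigs would be lower than higher on that scale was not tested.

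After 3 h of SU5402, 6441 contigs rose and 6731 fell among the 77193 tested. The test was the edgeR quasi-likelihood test on the 12 early libraries, with Benjamini-Hochberg adjustment at 0.05, and 17.1% of the contigs tested passed it, 8.34% upward and 8.72% downward. The risen and the fallen contigs differed in the size of their change. The median log2 fold change was 2.63 for the risen, of which 2685, or 41.7%, were more than 8-fold higher. For the fallen it was -0.89, and only 47, or 0.698%, were more than 8-fold lower, while 3264, or 48.5%, fell by between 1.5-fold and 2-fold. This gap in size went with level over the 12 early libraries. Below 1 CPM the medians were 3.21 for the risen and -1.87 for the fallen, and from 1 to 10 CPM 1.90 and -1.04. They were 0.96 and -0.77 from 10 to 100 CPM, and 0.64 and -0.69 at 100 CPM or more. The filter on low counts can pass a rare contig through libraries of 1 treatment. At 8 hpf, 347 of the risen had 0 DMSO reads and at least 10 in each SU5402 library, and for 2 of the fallen the reverse held. The part of this in the gap was not tested. When the change was tested against 1.5-fold instead of 0, 3684 contigs rose and 1311 fell. The split depended on scaling, with 6869 risen and 5861 fallen with DESeq2 size factors, 7286 and 5036 with library totals, and 10603 and 2432 with TMM factors from abundant contigs. On these scales the log2 fold changes of all contigs moved up, in the median, by 0.047, 0.1 and 0.33. Of the risen contigs 6439 also rose under all 3 of them, and of the fallen 2432 also fell. The number called also depended on each library, with 5637 without SU5402 replicate 1, 8192 without SU5402 replicate 2, 5777 without DMSO replicate 1 and 6769 without DMSO replicate 2. Calls in the same direction in all 4 of these fits numbered 2176 risen and 1906 fallen contigs.

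**Figure D2:**
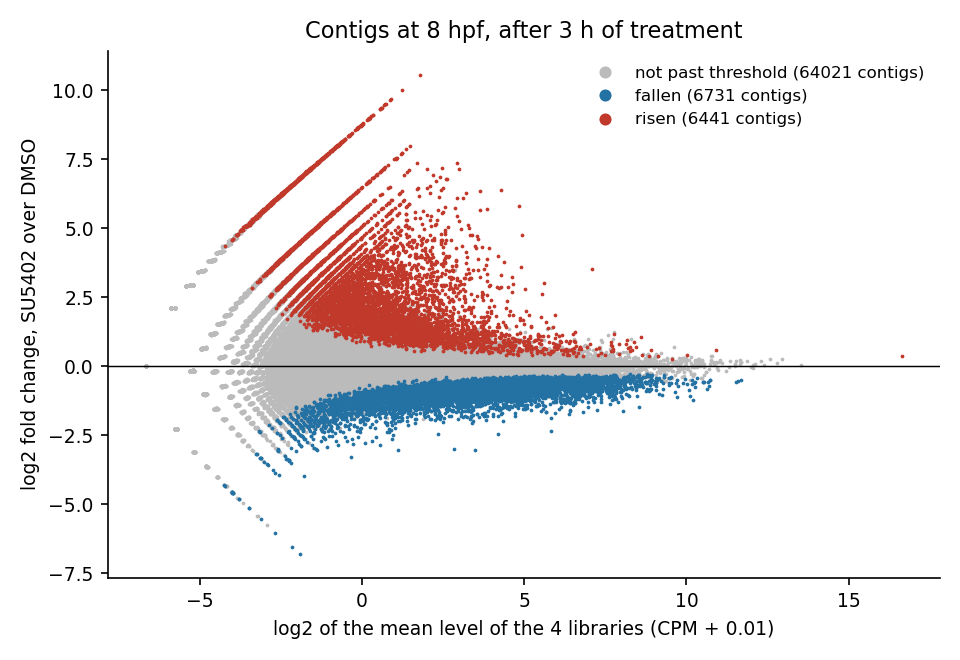
Log2 fold change of SU5402 over DMSO at 8 hpf against the log2 mean level of the 4 libraries (CPM + 0.01), 1 point for each of 77193 contigs, with risen contigs in red, fallen in blue and the rest in grey. The 6441 risen contigs reach far larger changes than the 6731 fallen ones, which form a narrow band at higher levels, and the stripes at the left are contigs with few reads in a group.

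Direction varied with level. Of the 35625 contigs with a mean below 1 CPM over the 12 early libraries, 9.72% rose and 1.14% fell. Between 1 and 10 CPM, 8.23% of 30347 contigs rose and 8.47% fell. From 10 to 100 CPM, 4.56% of 9657 rose and 31.8% fell, and at 100 CPM or more, 2.49% of 1564 rose and 43.5% fell. The median log2 fold change in these classes was 0.31, -0.10, -0.33 and -0.34, from the lowest to the highest. A change of a rare contig must be larger to be called, and no test compared the shares. The filter asks for enough reads in only 2 of the 12 libraries, so a rare contig can pass through libraries of 1 treatment. At 8 hpf, 349 tested contigs had 0 DMSO reads and at least 10 in each SU5402 library, and 347 of them rose. The reverse held for 2 tested contigs, and 2 fell. The part of this in the shares was not tested. The fall of the abundant contigs depended on scaling. With library totals, 5.05% of those at 100 CPM or more rose and 36.3% fell. With TMM factors from abundant contigs, which centre this class by construction, 20.2% rose and 19.8% fell. Below 1 CPM that last scale gave 13.6% risen and 0.432% fallen.

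**Figure D3:**
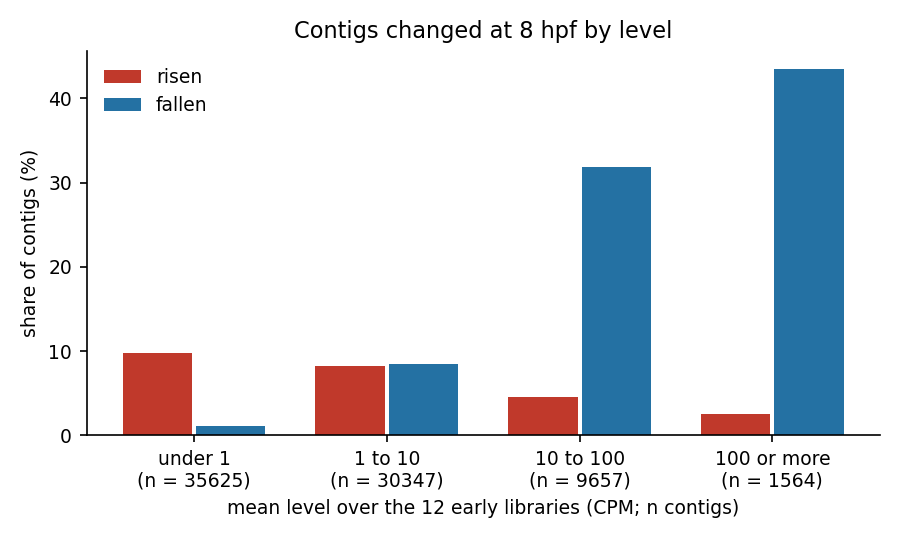
Share of contigs (%) that rose (red) or fell (blue) with SU5402 at 8 hpf, by mean level over the 12 early libraries in CPM, with the number of contigs under each class. The share that fell climbs from 1.14% below 1 CPM to 43.5% at 100 CPM or more, while the share that rose drops from 9.72% to 2.49%.

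The reads carried by these contigs shifted accordingly. Fallen contigs took 18.1% and 18.8% of the reads of the SU5402 libraries and 28.4% and 27.8% of those of the DMSO libraries. Risen contigs took 14.7% and 15.5% with SU5402 and 9.42% and 10.3% with DMSO, but most of this was ContigAmph3515. Without it they took 4.31% and 4.03% with SU5402 and 1.79% and 1.87% with DMSO. These shares describe contigs chosen for their change and are no test of it.

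Some contigs were found with SU5402 and not at all in controls. At 8 hpf, 356 contigs had at least 10 reads in each SU5402 library and 0 reads in both DMSO libraries. A count of 0 over both DMSO libraries allows a level of up to 0.047 CPM, counting error only. Their levels with SU5402 were low, with a median of 0.578 CPM and a highest value of 6.56 CPM, relative to library totals. The reverse, at least 10 reads in each DMSO library and 0 in both SU5402 libraries, was found for 2 contigs. In all, 5827 contigs had 0 reads in both DMSO libraries and 3118 in both SU5402 libraries. Without the minimum of 10 reads, 3731 contigs had reads only with SU5402 and 1022 only with DMSO. The libraries at other times were not used to choose these 356 contigs. With SU5402, 0 of them were without reads in both libraries at 11 hpf and 1 at 14 hpf, where their medians were 0.906 and 0.496 CPM. In DMSO embryos, 213 of them were without reads in both libraries at 11 hpf and 192 at 14 hpf, and 1 contig had at least 10 reads in each library at each of these times. After 3 h of late treatment 42 of the 356 had at least 10 reads in each SU5402 library and 9 in each DMSO library. With SU5402, 209 of the 356 had at least 10 reads in each library at 11 hpf and 192 at 14 hpf. Nearly all of the 356 contigs thus had reads with SU5402 at 11 and 14 hpf, but many had fewer than 10 in a library.

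The 2 contigs that rose with the smallest p were ContigAmph24501 and ContigAmph54642. ContigAmph24501 stood at 59.8 and 58.6 CPM in the SU5402 libraries at 8 hpf, against 2.28 and 2.09 CPM in the DMSO libraries. The groups lay far apart, and the log2 fold change was 4.76 (SE 0.16, adjusted p = 1.4e-06). ContigAmph54642 was a rarer contig, at 7.44 and 7.8 CPM with SU5402 and 0.34 and 0.293 CPM with DMSO, a log2 fold change of 4.57 with an SE of 0.18 (adjusted p = 5.3e-06). With 10 and 8 reads behind the DMSO values, the counting error is larger than this SE shows. The effect on both contigs was larger at 14 hpf. ContigAmph24501 reached 177 ± 6.5 CPM at 11 hpf and 502 ± 1.77 CPM at 14 hpf with SU5402, against 1.39 ± 0.423 and 1.54 ± 0.135 CPM with DMSO (SD, n = 2). Its effect at 8 hpf was smaller than that at 11 hpf by a log2 difference of -2.25 (SE 0.22, adjusted p = 0.0032) and than that at 14 hpf by -3.59 (SE 0.21, adjusted p = 8.9e-05). ContigAmph54642 stood at 15.8 ± 0.0656 CPM at 11 hpf and 67.8 ± 0.919 CPM at 14 hpf with SU5402, against 0.149 ± 0.0202 and 0.173 ± 0.0324 CPM with DMSO. Its effect at 8 hpf differed from that at 14 hpf by -4.02 (SE 0.3, adjusted p = 0.00028), while the difference from 11 hpf, -2.11, had an adjusted p of 0.087. In DMSO embryos both contigs were low throughout but had their highest early level at 8 hpf, at 2.18 ± 0.137 CPM for ContigAmph24501 and 0.317 ± 0.0336 CPM for ContigAmph54642, so part of each difference between effects lay in the controls.

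The 2 that fell with the smallest p, ContigAmph4311 and ContigAmph23744, were well above 50 CPM in controls. ContigAmph4311 had 24.7 and 24.6 CPM with SU5402 at 8 hpf and 77.1 and 79.7 CPM with DMSO. The groups did not overlap, and the log2 fold change was -1.67 (SE 0.096, adjusted p = 2.7e-05). ContigAmph23744 had 19.2 and 17.9 CPM with SU5402 and 103 and 86.6 CPM with DMSO (log2 fold change -2.36, SE 0.14, adjusted p = 2.8e-05). The DMSO replicates of this contig were farther apart than those of ContigAmph4311, but both lay far above the SU5402 pair. The later course of these contigs differed. ContigAmph4311 was at 50.4 ± 0.583 CPM at 11 hpf and 94.9 ± 3.57 CPM at 14 hpf with SU5402, against 109 ± 1.17 and 93.1 ± 2.98 CPM with DMSO (SD, n = 2). At 14 hpf its log2 fold change was 0.03 (SE 0.093, adjusted p = 0.88), and the effect at 8 hpf was below that at 14 hpf by -1.70 (SE 0.13, adjusted p = 0.00035). ContigAmph23744 stayed low, at 16.8 ± 0.819 CPM at 11 hpf and 32.9 ± 1.16 CPM at 14 hpf with SU5402, against 90.5 ± 11.1 and 95.6 ± 6.69 CPM with DMSO. Its effects at 8 and 14 hpf differed by -0.82 (SE 0.19, adjusted p = 0.031). Controls held both contigs at similar levels from 8 to 14 hpf, within 78.4 to 109 CPM for the group means of ContigAmph4311 and 90.5 to 95.6 CPM for those of ContigAmph23744.

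**Figure D4:**
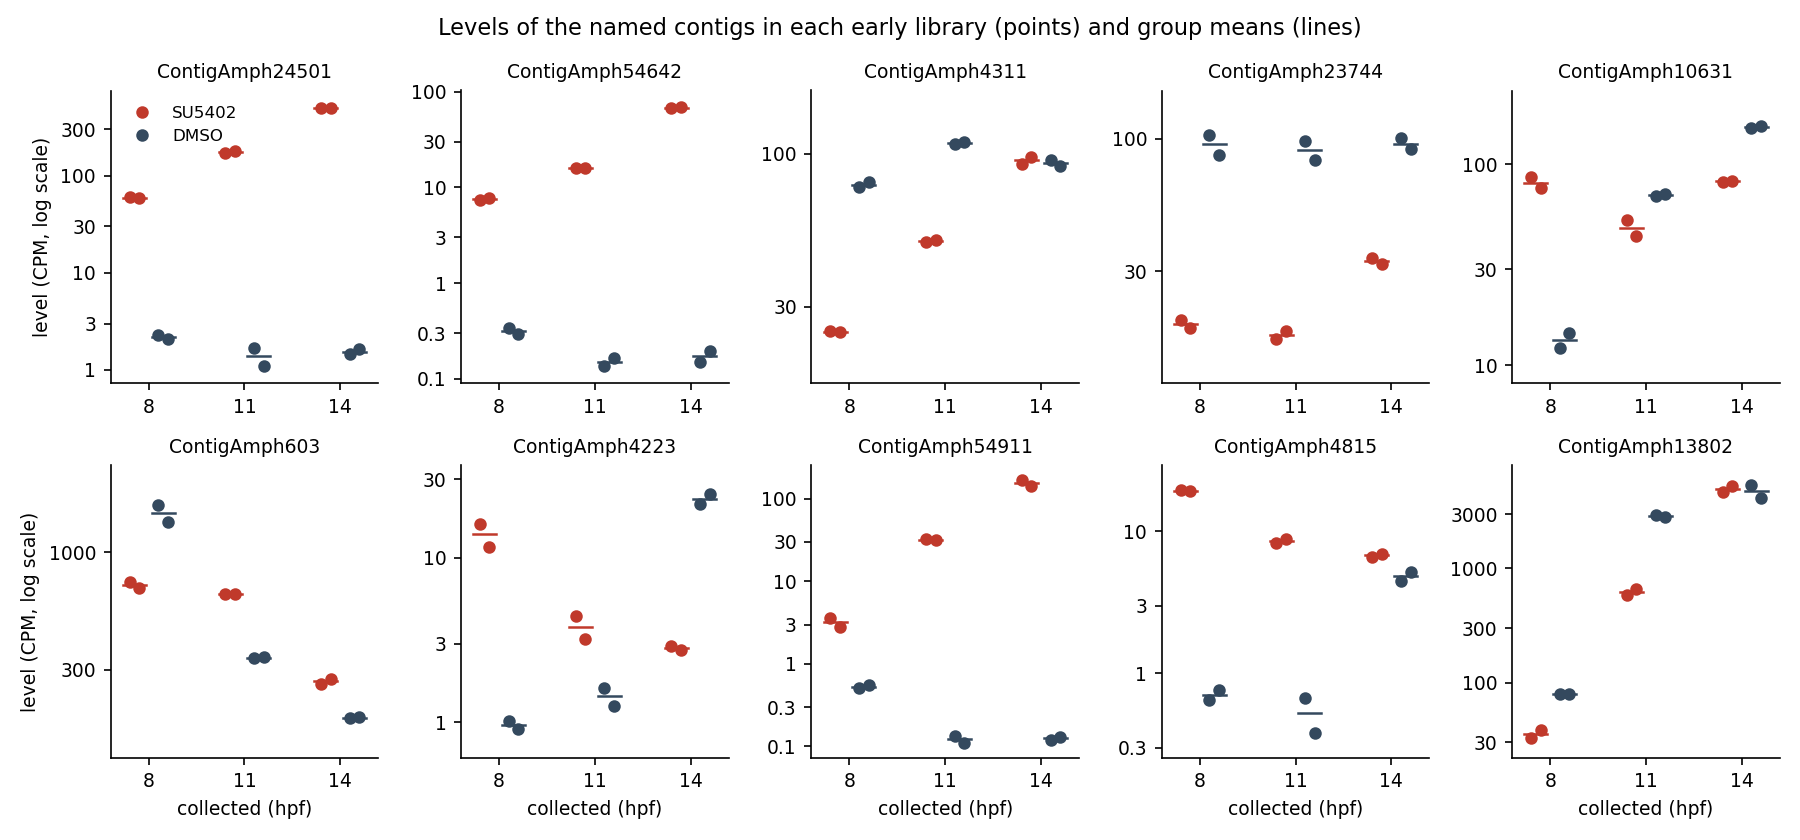
Level in CPM on a log axis of the 10 named contigs in each early library at 8, 11 and 14 hpf, with SU5402 libraries in red, DMSO libraries in dark blue, points for libraries and lines for group means. SU5402 and DMSO libraries do not overlap at 8 hpf in any panel, while at 14 hpf ContigAmph4311 and ContigAmph13802 have overlapping groups. All 10 were chosen for a small p in tests that use the 8 hpf libraries, so their separation at 8 hpf is no test.

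Contigs that changed at 8 hpf were followed in the libraries of 11 and 14 hpf, which are not among those compared at 8 hpf but belong to the same fit. The 11 hpf libraries were made with 15 PCR cycles and held fewer reads than those of 8 and 14 hpf, made with 12 cycles, and the part of this in the values was not tested. The 6441 risen contigs had a median log2 fold change of 2.63 at 8 hpf, by which they were chosen, 3.06 at 11 hpf and 2.51 at 14 hpf. At 11 hpf 94.8% and at 14 hpf 88.4% of them were above 0, against 52.5% and 49.8% of all contigs tested. That background is not matched for level. Below 1 CPM, which holds 3463 of the risen, the median of all contigs was 0.497 at 11 hpf and 0.244 at 14 hpf. A rare contig can pass the filter through SU5402 libraries of these times, and the part of this in the shares was not tested. At 10 CPM or more, 74.9% and 68.7% of the risen were above 0, against 30.6% and 38.1% of all contigs of that level. The 6731 fallen contigs had a median of -0.89 at 8 hpf, -0.58 at 11 hpf and -0.25 at 14 hpf. Of these, 91% were below 0 at 11 hpf and 71.4% at 14 hpf, against 47.4% and 50.2% of all contigs tested. Many of the fallen are abundant, and abundant contigs as a whole lay below 0. At 10 CPM or more, 91.1% of the 3755 fallen were below 0 at 11 hpf and 68.6% at 14 hpf, against 69.4% and 61.9% of all contigs of that level. Their medians were -0.54 at 11 hpf and -0.20 at 14 hpf, against -0.28 and -0.15 for that level. The 11221 contigs of that level include the 3755 fallen, which narrows the gap, and the fallen were not set against the rest. The fallen contigs thus had a smaller median effect at each later time, and the risen ones did not. This held for the risen as a whole, which are mostly rare. The 479 risen contigs of 10 CPM or more had medians of 0.93, 0.77 and 0.40 at 8, 11 and 14 hpf, against -0.33, -0.28 and -0.15 for all 11221 contigs of that level. Contigs chosen for a change tend to show a smaller one in other libraries, and that part was not separated here. The fallen medians kept this order with library totals, at -0.79, -0.46 and -0.12, and with TMM factors from abundant contigs, at -0.56, -0.33 and -0.13.

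The difference between effects was tested directly in the same fit. The effect at 8 hpf differed from that at 11 hpf at 715 contigs, or 0.926% of those tested, and was above it at 343, or 0.444%, and below it at 372, or 0.482%. It differed from that at 14 hpf at 4175 contigs, or 5.41%, and was above it at 1275, or 1.65%, and below it at 2900, or 3.76%. Both differences share the 8 hpf libraries. Contigs below the effect at 14 hpf had a median log2 fold change of -0.67 at 8 hpf and 0.71 at 14 hpf, and those above it had medians of 0.79 and -1.02, values that the selection for a difference enlarges. The split at 14 hpf depended on scaling, with 2119 above and 1884 below on TMM factors from abundant contigs. That from 11 hpf was turned by scaling, to 397 above and 302 below with DESeq2 size factors and 427 and 315 with TMM factors from abundant contigs, and by leaving out the filter on low counts, to 384 and 200. Each of the 8 libraries of a difference, left out, lowered its count by more than 1.5 times. For 11 hpf the count was 197 or 252 without SU5402 8 hpf replicate 1 or 2, and 169 or 205 without DMSO 8 hpf replicate 1 or 2. It was 97 or 189 without SU5402 11 hpf replicate 1 or 2, and 290 or 199 without DMSO 11 hpf replicate 1 or 2. For 14 hpf it was 2229 or 2185 without SU5402 8 hpf replicate 1 or 2, and 1907 or 2627 without DMSO 8 hpf replicate 1 or 2. It was 2283 or 1709 without SU5402 14 hpf replicate 1 or 2, and 1740 or 1885 without DMSO 14 hpf replicate 1 or 2.

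ContigAmph10631 was the contig most clearly above its 11 hpf effect. With SU5402 it had 86.1 and 76.2 CPM at 8 hpf, 53.1 and 43.8 CPM at 11 hpf and 81.9 and 83 CPM at 14 hpf. In DMSO embryos it had 12.2 and 14.4 CPM at 8 hpf, 69.2 and 71.6 CPM at 11 hpf and 151 and 156 CPM at 14 hpf. The SU5402 libraries at 8 hpf thus lay above the DMSO libraries of 8 and 11 hpf and below those of 14 hpf. The nearest values, 76.2 CPM with SU5402 at 8 hpf and 71.6 CPM with DMSO at 11 hpf, were close. This order across times was not tested. The log2 fold change was 2.61 at 8 hpf (SE 0.14, adjusted p = 1.8e-05) and -0.54 at 11 hpf (SE 0.13, adjusted p = 0.013), a difference of 3.15 (SE 0.18, adjusted p = 0.00048). ContigAmph603, an abundant contig, was the one most clearly below its 11 hpf effect. It had 734 and 692 CPM with SU5402 and 1632 and 1370 CPM with DMSO at 8 hpf. At 11 hpf the order was turned, with 654 and 651 CPM with SU5402 and 337 and 341 CPM with DMSO. The difference of its effects was -2.02 (SE 0.13, adjusted p = 0.00053). In controls the contig was far lower at 11 than at 8 hpf, whereas its SU5402 libraries were close at both times.

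ContigAmph4223 rose at 8 hpf and fell at 14 hpf. It stood at 16.1 and 11.6 CPM with SU5402 and 1.02 and 0.915 CPM with DMSO at 8 hpf, and at 2.93 and 2.76 CPM with SU5402 and 21.1 and 24.3 CPM with DMSO at 14 hpf. Its log2 fold change was 3.83 at 8 hpf (SE 0.26, adjusted p = 4.5e-05) and -2.99 at 14 hpf (SE 0.24, adjusted p = 3.9e-05), a difference of 6.83 (SE 0.35, adjusted p = 5.4e-05). ContigAmph54911 went the other way among the risen. With SU5402 it had 3.6 and 2.78 CPM at 8 hpf, 32.2 and 31.7 CPM at 11 hpf and 171 and 141 CPM at 14 hpf. The DMSO libraries had 0.511 and 0.549 CPM at 8 hpf and 4 reads each at 14 hpf. The effect at 8 hpf was below that at 14 hpf by a log2 difference of -7.65 (SE 0.32, adjusted p = 1.7e-05), an SE that understates the counting error of so few reads.

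**Figure D5:**
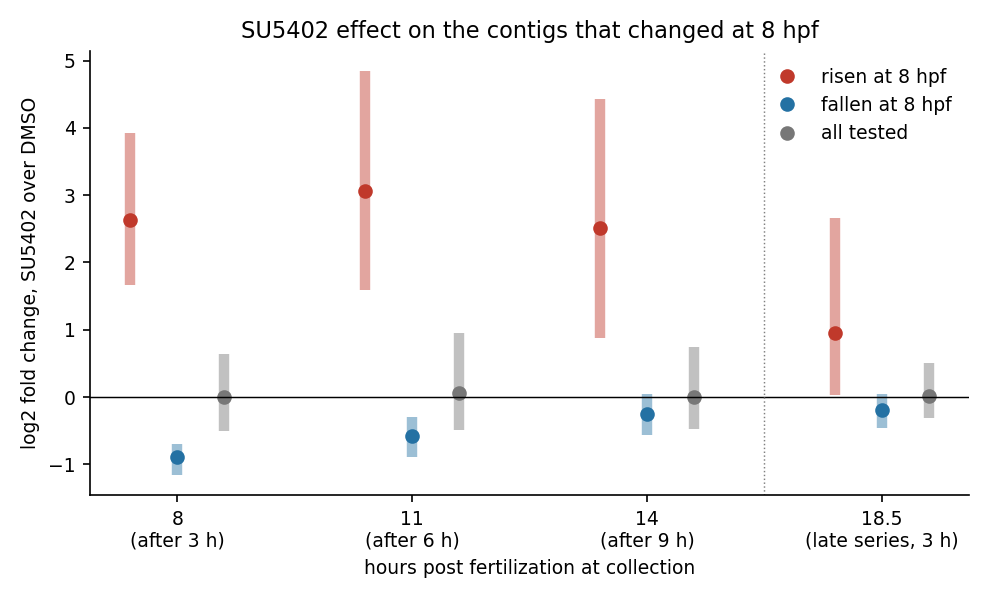
Median (points) and quartiles (bars) of the log2 fold change of SU5402 over DMSO at 8, 11, 14 and 18.5 hpf for the contigs risen at 8 hpf (red), fallen at 8 hpf (blue) and all contigs tested (grey). The risen set has medians of 2.63, 3.06 and 2.51 in the early series and 0.96 after late treatment, and the fallen set -0.89, -0.58, -0.25 and -0.19.

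The same 3 h of exposure begun at 15.5 hpf had a different effect at some contigs. In the fit of all 24 libraries, the effect of early treatment at 8 hpf differed from that of late treatment at 18.5 hpf at 8646 of 87512 contigs, or 9.88%. It was above the late effect at 3079, or 3.52%, and below it at 5567, or 6.36%. DESeq2 size factors brought the split to 3805 and 4197, and TMM factors from abundant contigs turned it, to 5121 above and 3106 below. The number was 5758 without DMSO late replicate 1, 5300 without DMSO late replicate 2 and 5634 without SU5402 late replicate 1. The fit assumes 1 spread for both series although early pairs vary more, and limma-voom with a weight for each stage called 9867. Contigs risen at 8 hpf had a median log2 fold change of 0.96 after late treatment, with 76% above 0 against 51.3% of all contigs. For the fallen it was -0.19, with 70.7% below 0 against 47.1%. At 10 CPM or more, 70.8% of the fallen were below 0, against 58.9% of all contigs of that level. The contigs named first among the risen at 8 hpf had a larger effect after late treatment. ContigAmph24501 stood at 520 ± 11.1 CPM with SU5402 and 1.33 ± 0.498 CPM with DMSO at 18.5 hpf (SD, n = 2), and its early effect was below the late one by a log2 difference of -3.87 (SE 0.24, adjusted p = 1.1e-08). For ContigAmph54642 the levels were 63.6 ± 1.36 CPM with SU5402 and 0.127 ± 0.0394 CPM with DMSO, and the difference was -4.31 (SE 0.37, adjusted p = 5.2e-07).

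The contigs with the smallest p on either side were ContigAmph4815 and ContigAmph13802, whose levels are given here as CPM of the 24-library fit. ContigAmph4815 had 22.4 and 22.7 CPM with SU5402 and 0.759 and 0.89 CPM with DMSO at 8 hpf, and 7.43 and 8.14 CPM with SU5402 and 10.5 and 9.9 CPM with DMSO at 18.5 hpf. The control level at 18.5 hpf was thus more than at 8 hpf, and the effects differed by 5.15 (SE 0.23, adjusted p = 2.1e-10). ContigAmph13802 had 37.8 and 45.1 CPM with SU5402 and 93.5 and 92 CPM with DMSO at 8 hpf, lower by -1.16 on a log2 scale, with an SE of 0.13 and an adjusted p of 4.5e-06. At 18.5 hpf it had 3371 and 3314 CPM with SU5402 and 298 and 247 CPM with DMSO, higher by 3.62, with an SE of 0.14 and an adjusted p of 8e-12. The difference was -4.78 (SE 0.2, adjusted p = 8.6e-11). In the early series this contig stood at 657 ± 56.1 CPM with SU5402 and 3183 ± 112 CPM with DMSO at 11 hpf (SD, n = 2). The log2 fold change there was -2.21 in the edgeR fit of the early libraries (SE 0.14, adjusted p = 1.5e-05). By 14 hpf the contig was abundant with and without the inhibitor, at 5546 ± 578 CPM with SU5402 and 5080 ± 1034 CPM with DMSO.

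Contigs that SU5402 changed at 8 hpf were also described by what they did in control embryos between 11 and 14 hpf. These 4 DMSO libraries are not among those compared at 8 hpf but belong to the same fit. They enter its spread and the level classes, so the calls at 8 hpf and in controls are not independent. From 11 to 14 hpf in controls, 12592 contigs changed, or 16.3% of those tested, of which 6932 rose, or 8.98%, and 5660 fell, or 7.33%. Without DMSO 14 hpf replicate 1 or 2 the number was 6645 or 6780, and without DMSO 11 hpf replicate 1 or 2 it was 7085 or 7490. Of the 6441 contigs risen with SU5402 at 8 hpf, 8.91% rose in controls and 2.76% fell, and of the 6731 fallen 14.7% rose and 22.6% fell. Since calls follow level, the shares are also given within classes. Below 1 CPM, which holds 3463 of the risen, 2.57% of the risen rose in controls and 1.27% fell, against 4.24% and 1.95% of the class. Of the 405 fallen there, 4.94% rose and 5.43% fell. From 10 to 100 CPM, 30.2% of the 440 contigs risen with SU5402 at 8 hpf rose in controls at 14 hpf over 11 hpf and 7.5% fell, against 18% and 21.2% of all 9657 contigs of the class. Of the 3075 fallen with SU5402 in this class, 18.3% rose and 27.5% fell. From 1 to 10 CPM, 13.9% of the risen rose in controls and 3.8% fell, 9.68% of the fallen rose and 16.7% fell, and 11.2% and 7.95% of all contigs of the class did. At 100 CPM or more, 5 of the 39 risen contigs rose in controls and 6 fell, and of the 680 fallen 23.4% rose and 33.5% fell, against 17.8% and 32% of the class. No test compared these shares. The 6 named contigs that rose with SU5402 at 8 hpf had log2 fold changes in controls at 14 hpf over 11 hpf of 1.12 for ContigAmph10631, 3.98 for ContigAmph4223, 3.20 for ContigAmph4815, 0.16 for ContigAmph24501, 0.19 for ContigAmph54642 and 0.05 for ContigAmph54911. ContigAmph10631, ContigAmph4223 and ContigAmph54911 were chosen by differences that use DMSO libraries of 11 or 14 hpf, so these values are a description and no test is given.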

How the data were processed

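Poly(A) RNA of whole embryos was sequenced from random-primed cDNA without marking of strand, per the labels' protocols. The authors deposited raw read counts for 96094 contigs in 24 libraries, and 0 columns were left unused. Per the submitters' processing notes BWA 0.6.1 was used. How contigs were assembled and reads counted is not given in the sources used. Several contigs can come from 1 gene, and similar copies or opposite strands can share reads. Counts were analysed with edgeR 4.0.16 (glmQLFit, glmQLFTest, two-sided) in R 4.3.3, with filterByExpr, TMM factors and 1 coefficient for each of 6 groups of the 12 early libraries (6 residual degrees of freedom). The filter kept 77193 contigs and left out 18901, 2234 of them with at least 10 reads in a library at 8 hpf, and 2096 contigs had 0 reads in all 4. The early fit was preferred to that of all 24 libraries (12 residual degrees of freedom), used for the late comparison, because early pairs vary more. The SE is the absolute log2 fold change over the square root of F. Named were the 2 risen and 2 fallen contigs with the smallest p, and for each difference 1 on either side not yet named. limma 3.58.1 and DESeq2 1.42.0 served as alternatives. Comparisons and lists were chosen with earlier results of these data known. The labels do not tie replicates to separate dishes or spawnings, so the spread behind the p-values is that between libraries and may be technical. No early pair was 1 library deposited again, since the chi-square of their counts was at least 7.5 per degree of freedom.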

Additional observations from a re-analysis of the deposited data

Results flagged for a closer look

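The effect of SU5402 at 8 hpf differed, by a test of the difference in the same fit, from that at 11 hpf at 715 contigs and from that at 14 hpf at 4175. Between early and late treatment of 3 h the effects differed at 8646 contigs.

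Of the named contigs, 6 stand out by such a test. The effect at 8 hpf exceeded that at 11 hpf by a log2 difference of 3.15 for ContigAmph10631 and was below it by -2.02 for ContigAmph603. Against 14 hpf the difference was 6.83 for ContigAmph4223 and -7.65 for ContigAmph54911. Early minus late treatment gave 5.15 for ContigAmph4815 and -4.78 for ContigAmph13802. Each kept its direction under every alternative run. With both replicates of each group kept, each also passed the threshold, with a highest adjusted p of 0.00058, for ContigAmph603 with the stricter filter in edgeR. The contigs were chosen for the smallest p and the alternatives reuse their libraries, so this is no independent check.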

How the results depend on the processing

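The contigs changed at 8 hpf numbered 13172. The fit of all 24 libraries gave 20339, that of the 4 libraries compared 6622 (4356 risen, 2266 fallen) and the test against 1.5-fold 4995, and leaving out a replicate gave 5637 to 8192. The difference from 11 hpf moved to 1692 with the DESeq2 Wald test, 374 with limma-voom and 2899 with all 24 libraries, and without 1 replicate it ran from 97 to 290. The difference from 14 hpf moved to 10331 with all 24 libraries and ran from 1709 to 2627 without a replicate. The change in DMSO embryos at 14 over 11 hpf, 12592 contigs, moved to 19672 with all 24 libraries and ran from 6645 to 7490 without a replicate, and the difference between early and late treatment ran from 5300 to 7745. A library left alone in its group is assumed to vary like the other groups. Other scalings and filters kept these 5 counts within 1.5 times. The spread of the pairs at 8 hpf was 20.5% for SU5402 and 19% for DMSO when only contigs of at least 10 CPM were used. The 4 contigs named at 8 hpf, chosen for their small p in the same libraries, kept direction under all 16 alternatives. With both replicates of each group kept they also kept their call, with a highest adjusted p of 0.01 in the edgeR fit of the 4 libraries compared.

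The replicate number as a block gave 14608 contigs at 8 hpf, 978 and 5323 for the differences from 11 and 14 hpf, 14434 for the DMSO change and 8811 for early against late treatment. Replicate differences at 8 hpf correlated at r = 0.85 between SU5402 and DMSO across 17627 contigs, which share their libraries and are not independent, but the labels do not say what the number marks. At 14 hpf the correlation was -0.79, and a block with the numbers of the SU5402 pair at 14 hpf crossed, added after seeing the data, gave 25908, 4993, 13768 and 23444 contigs for 8 hpf, the differences from 11 and 14 hpf, and the DMSO change.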
